A study of Homo sapiens with 4 samples.

Results

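Genes of MHC class I antigen presentation were examined for enriched regions in a ChIP-seq experiment on MDA-MB-231, an established human line of triple-negative breast cancer. The 9 genes were listed by name: HLA-B, HLA-C, HLA-E, HLA-F, B2M, TAP1, TAP2, TAPBP and NLRC5, of 19974 protein-coding genes on chromosomes 1 to 22 and X. For each gene, all peaks that overlapped the RefSeq gene span extended by 10 kb on each side were taken, and this extended span is called the window of the gene. The study holds 2 ChIP samples labelled PD-L1, precipitated with an Abcam antibody to the HA tag, and 2 input samples without antibody. All 4 came from untreated cells that the labels call a subclone of MDA-MB-231, with the genotype label wild type. The sources used here do not say how the tag was introduced. No mock precipitation was analysed here, so recovery of chromatin without the target cannot be told apart from binding, and peaks cannot check the cell type against its marker genes.

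Class I molecules show peptides from inside the cell to CD8 T cells. A polymorphic heavy chain (HLA-B, HLA-C) or one of the less variable chains (HLA-E, HLA-F) pairs with beta-2-microglobulin, the product of B2M. TAP1 and TAP2 form the transporter that carries peptides into the endoplasmic reticulum, and tapasin, the product of TAPBP, bridges it to the empty class I molecule. NLRC5 is the transactivator that is recruited to class I promoters through a conserved module of W/S, X and Y boxes. PD-L1, named as the precipitated protein, is the ligand of the inhibitory receptor PD-1 on T cells.

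Promoter letters are shown for the genes of 3 heavy chains and for B2M, because these encode the chains of the class I molecule itself. None of the 4 had a peak in either list. RefSeq promoter entries (GRCh38.p14, from 250 bases before to 50 bases after the gene start) were found for 7 of the 9 genes, and there was no entry for HLA-E and NLRC5. Each line runs 5′ to 3′ on the gene's strand from 210 to 41 bases before the start. Capitals mark matches to ATTGG (Y box), TGACGC or TGACGTCA (X2 box), TTTC and TTTC with 2 free bases between (interferon-stimulated response element), TTCNNNGAA (gamma-activated site) and GGGGA and TCCCC with 1 free base between (NF-kB site), each searched on both strands. The positions are chr6:31357220-31357389 (HLA-B, minus strand), chr6:31272133-31272302 (HLA-C, minus), chr6:29723224-29723393 (HLA-F, plus) and chr15:44711307-44711476 (B2M, plus).
HLA-B: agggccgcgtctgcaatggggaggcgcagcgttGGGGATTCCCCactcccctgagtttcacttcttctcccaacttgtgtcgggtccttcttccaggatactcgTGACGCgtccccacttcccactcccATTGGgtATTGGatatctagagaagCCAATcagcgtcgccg
HLA-C: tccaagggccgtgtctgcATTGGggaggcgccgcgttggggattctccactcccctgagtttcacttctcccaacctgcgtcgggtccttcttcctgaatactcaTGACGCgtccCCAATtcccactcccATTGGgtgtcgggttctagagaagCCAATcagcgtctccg
HLA-F: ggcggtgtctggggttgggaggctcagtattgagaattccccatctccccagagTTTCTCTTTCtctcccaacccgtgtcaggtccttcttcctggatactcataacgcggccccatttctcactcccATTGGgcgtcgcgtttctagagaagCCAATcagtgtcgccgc
B2M: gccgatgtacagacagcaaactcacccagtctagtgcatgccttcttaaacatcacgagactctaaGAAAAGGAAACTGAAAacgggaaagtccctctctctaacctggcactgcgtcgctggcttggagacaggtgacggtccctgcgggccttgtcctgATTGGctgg

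In these letters, HLA-B, HLA-C and HLA-F have a Y box match 80 to 82 bases before the start and a second, on the other strand, 56 or 57 bases before it. The X2 match TGACGC stands 106 bases before the start of HLA-B and 105 bases before that of HLA-C. HLA-F and B2M had no X2 match, B2M had 1 Y box match, and W/S letters were not searched. Over the whole entries, the Y box letters were in 5 of the 7 members with an entry, against 34.6% of 34943 RefSeq promoters of the same length. TGACGC was in 3 of 7 (HLA-B, HLA-C, TAP2), against 9.11% of promoters. The interferon-stimulated response element was in 5 of 7 (HLA-F, TAP1, TAP2, TAPBP and B2M), against 3.57%, and the matches in TAP1, TAPBP and B2M were overlapping pairs. The NF-kB letters were in HLA-B alone, against 0.0744% of promoters, and TGACGTCA (1.84%) and the gamma-activated site (7.66%) were in none of the 7 first entries. A second entry of TAP1 holds a match to the gamma-activated site. The promoters of HLA-B and HLA-C were identical in 88.5% of aligned columns, with a longest identical run of 25 bases. HLA-F was 79.7% identical to HLA-B and 78.9% identical to HLA-C, and B2M was 49.4% identical to HLA-B. A match is a description of letters and not a bound site.

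On these chromosomes, the list of replicate 1 had 166548 peaks and that of replicate 2 had 93591. The authors' fold enrichment over the caller's background had a median of 3.14 in replicate 1 and 2.27 in replicate 2. The median −log10 q was 1.91 and 1.80, not far above the lowest values in the lists, 1.30 in both. Regions where peaks of both replicates overlapped by at least 1 bp, joined into their union, are called shared regions, and there were 45771 of them. Library depth is unknown, since no reads were analysed here.

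Of the 9 genes, 8 had no peak in their window in either replicate, and NLRC5 alone carried peaks, in both replicates. All 7 members on chromosome 6, which encode heavy chains, the transporter and tapasin, were without a peak, and so was B2M on chromosome 15. The 7 on chromosome 6 lie in a single stretch without peaks, described below, and are not independent observations. In the counts per gene that follow, this stretch enters 7 times. Over all protein-coding genes, 83.2% had a peak of replicate 1 in the window, 74.5% a peak of replicate 2 and 59.5% a shared region, and 14.1% had no peak of either replicate. In the 9 genes the corresponding counts were 1, 1, 1 and 8. Windows of the 8 genes without a peak were 23.3 to 36.9 kb long, and that of NLRC5 was 114 kb. The shares over all genes were not matched for window length. A shared region within 1 kb of a gene end was found at 1 of 9 genes, NLRC5, against 32.9% of all genes. The median density of peaks over the windows was 0 per 100 kb in both replicates for the 9 genes, and 8.10 (replicate 1) and 4.0 (replicate 2) for all genes. No test was made, since genes are not replicates of a condition and there was 1 list per replicate.

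**Figure D1:**
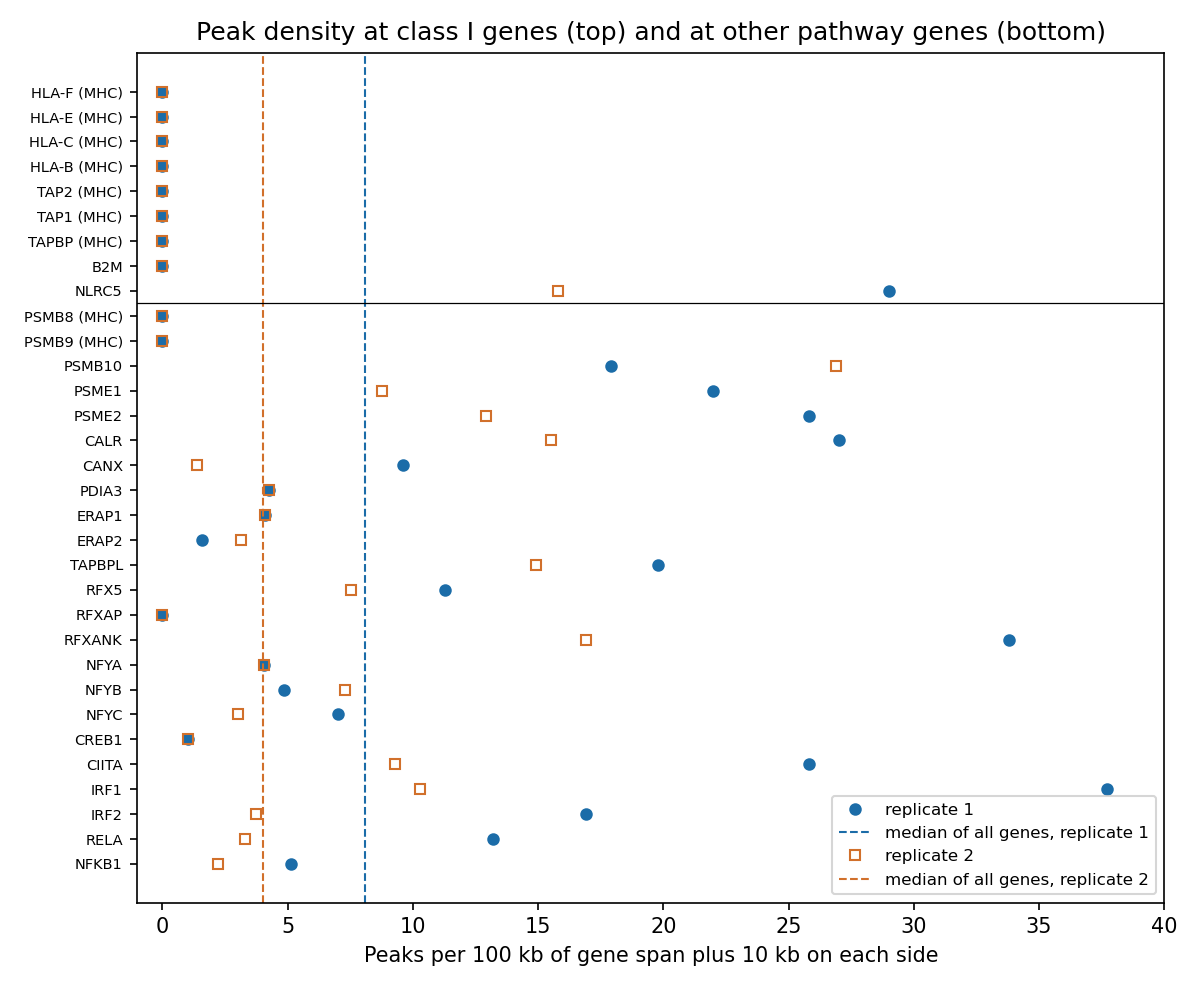
Peaks per 100 kb of gene span plus 10 kb on each side (horizontal axis) for the 9 class I presentation genes (above the line) and 23 other pathway genes (below it), with filled circles for replicate 1, open squares for replicate 2 and dashed lines at the medians of all protein-coding genes, 8.10 and 4.0. Points of 8 class I genes lie at 0 in both replicates, while NLRC5 lies at 29 and 15.8.

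The heavy chain genes lay far from any peak. HLA-F (hg38 6:29723434-29738532), which encodes a nonclassical chain, was 1219 kb from the nearest peak of replicate 1 and 1216 kb from that of replicate 2. HLA-E (6:30489509-30494194), whose product presents leader peptides to natural killer receptors, was 1985 and 1983 kb away. HLA-C (6:31268749-31272092), a ligand of killer immunoglobulin-like receptors, was 2216 and 2219 kb away, and HLA-B (6:31353875-31357179), the most polymorphic of the chains, 2131 and 2133 kb. Of all protein-coding genes, at least 98.5% were nearer to a peak than each of these 4 genes, in each replicate. The order of the distances follows the place of the genes in a single empty stretch and was the same in both lists.

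The genes of peptide transport and loading lay in the same stretch, nearer to its upper border. TAP2 (6:32821831-32838739) was 650 and 652 kb from the nearest peak, and TAP1 (6:32845209-32853704) 635 and 637 kb. The TAP genes are 6469 bp apart, so their windows overlap and they are not independent observations. TAPBP (6:33299694-33314078) was the member closest to the border, 174 kb from a peak of replicate 1 and 177 kb from a peak of replicate 2.

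The stretch without a peak in either list ran from 6:28506966 to 6:33488464, a length of 4.98 Mb, and contained 171 protein-coding genes. All 7 members on chromosome 6 lay inside it, and 19 of its genes, 4 of the members among them, have symbols that start with HLA. None of the 171 genes had a peak in its window. In each list alone the empty run was as long, 4.98 Mb, from 6:28504477 in replicate 1 and from 6:28506966 in replicate 2. The last peaks below it lay over GPX6, a glutathione peroxidase gene, at 6:28503495-28504476 in replicate 1 (fold 3.61) and 6:28506290-28506965 in replicate 2 (2.38). The first peaks above it were 6:33488465-33488691 in replicate 1 (3.26) and 6:33490610-33490946 in replicate 2 (2.26). Borders thus differed between the replicates by a few kb at each side. Peak numbers in the names ran on without a break across the stretch (141986 to 141987 in replicate 1, 79547 to 79548 in replicate 2) and through each whole list.

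Peaks were frequent on both sides of the stretch. The flank of equal length below it held 273 peaks of replicate 1 (54.8 per Mb), 129 of replicate 2 (25.9 per Mb) and 49 shared regions. The flank above held 848 (170 per Mb), 535 (107 per Mb) and 368. The lower flank had 103 protein-coding genes and the upper 64, fewer than the 171 of the stretch. Outside the stretch, chromosome 6 had 51.9 peaks of replicate 1 and 27.8 of replicate 2 per Mb. The region from 28 to 34 Mb, taken here as the MHC, had 26.3 and 16.7 peaks per Mb and 10.3 shared regions per Mb, all of them at its outer edges. The 5 genes of this region with the most shared regions in their windows were ITPR3 (10), an inositol trisphosphate receptor gene, IP6K3 (6), LEMD2 (6), MLN (6), the motilin gene, and BAK1 (3), a proapoptotic BCL2 family gene. They lie together above the stretch.

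**Figure D2:**
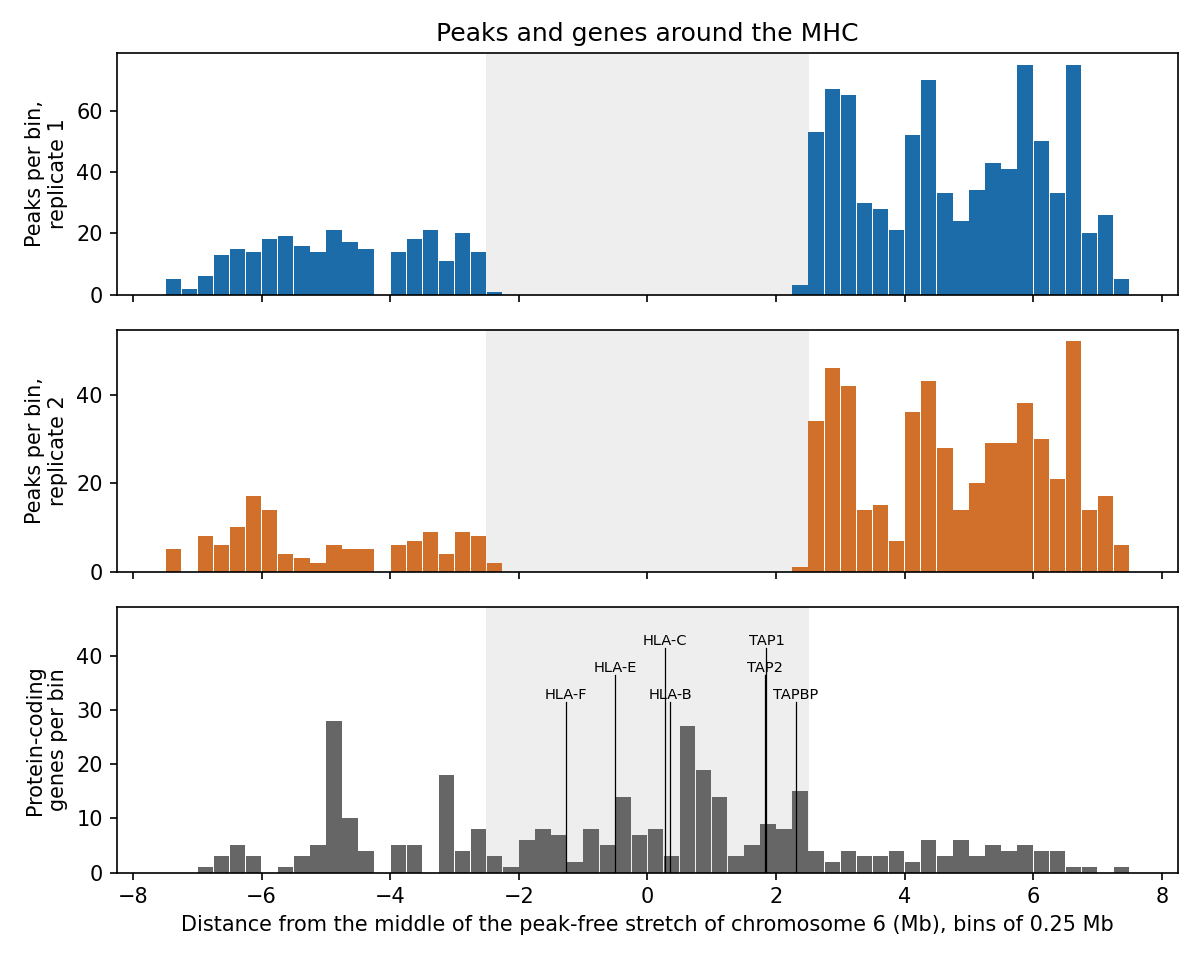
Number of peaks of replicate 1 (top) and replicate 2 (middle) and of protein-coding genes (bottom) in bins of 0.25 Mb, against the distance from the middle of the peak-free stretch of chromosome 6 in Mb. The shaded stretch of 4.98 Mb holds the 7 marked genes and no peak, while bins on both sides hold peaks.

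Other bins of 1 Mb with as many genes held peaks in at least 1 list. The 4 bins of 1 Mb that lie wholly inside the stretch, from 29 to 33 Mb, held 22 to 56 protein-coding genes each and no peak. Of 166 other bins of 1 Mb in the genome with at least 22 genes, 1 had no peak of replicate 1 and 0 had no peak of replicate 2. Their median was 137 peaks in replicate 1 and 76.5 in replicate 2. Of 190 protein-coding genes within the MHC region, 171 (90.0%) had no peak of either list in the window, against 13.3% of the 19784 genes outside it and 6.29% of the 859 other genes of chromosome 6. In all, 274 stretches of at least 500 kb had no peak in either list, with a median of 1 protein-coding gene inside. Of these, 151 held a gene. Many lay on chromosome X, which had the fewest peaks per Mb of all chromosomes, 1.51 in replicate 1 and 3.11 in replicate 2. The stretch with the class I genes ranked first by genes and 12th by length, and the next by genes, on chromosome 17, held 55. By genes per Mb it was not the densest: it had 34.3, and shorter empty stretches on chromosomes 8, 19, 1, 11 and 21 had 35.9, 39.6, 38.2, 35.0 and 50.6.

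**Figure D3:**
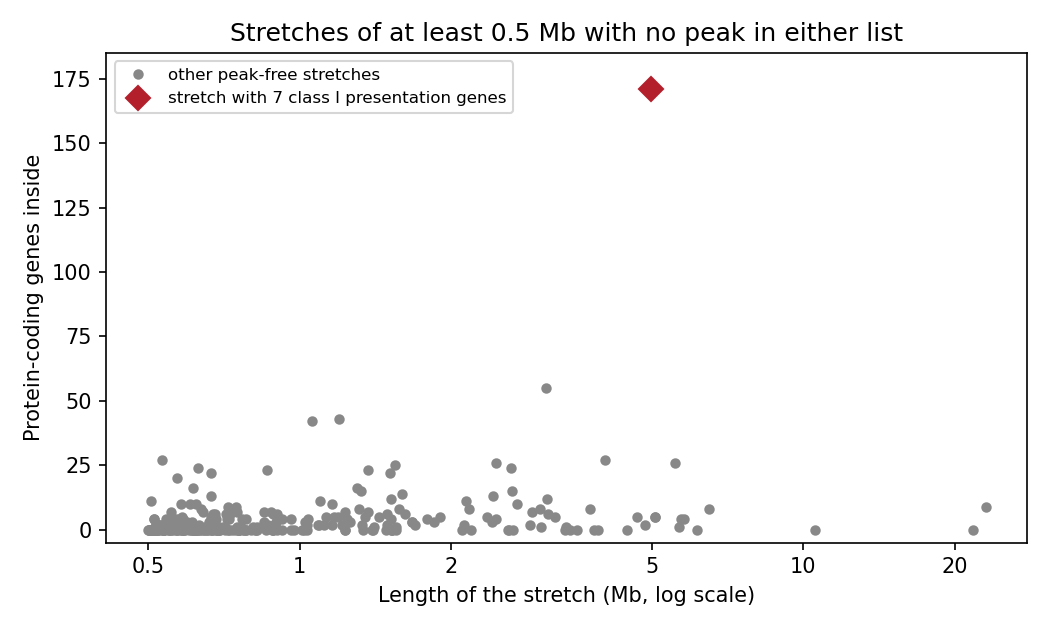
Length in Mb (log scale, horizontal axis) and number of protein-coding genes (vertical axis) of the 274 stretches of at least 500 kb with no peak in either list. The diamond, with 171 genes over 4.98 Mb, is the stretch with the 7 class I presentation genes of chromosome 6; the next highest point holds 55.

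The hg38 release carries alternate sequences of the MHC beside the sequence of chromosome 6. Peaks on sequences named as alternates were in the lists, 24 on 15 such sequences in replicate 1 and 3 on 2 in replicate 2, and 0 lay on an alternate of chromosome 6. The sources used here do not say how reads that match more than one sequence were treated, and its part in the empty stretch was not tested. A window without a peak therefore gives no level of enrichment at these 7 genes.

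B2M (15:44711517-44718145), which encodes the light chain shared by all class I molecules, had no peak in its window although it lies outside the MHC. Its nearest peaks were over PATL2, the gene next to it, at 15:44675229-44675704 in replicate 1 (35.8 kb away, fold 3.01) and 15:44673748-44674374 in replicate 2 (37.1 kb, fold 2.75). These peaks did not overlap each other. On the other side the nearest peaks were 304 kb away in replicate 1 (15:45022606-45023292, fold 3.26, at an end of SORD) and 386 kb away in replicate 2 (15:45103772-45104640, fold 2.16, over DUOX2). The stretch around B2M that was empty in both lists was thus 347 kb long and held 3 protein-coding genes, B2M, TRIM69 and TERB2. Within 500 kb of B2M on each side there were 38 peaks of replicate 1, 17 of replicate 2 and 9 shared regions. Of all protein-coding genes, 88.0% were nearer to a peak of replicate 1 than B2M and 84.5% were nearer to one of replicate 2. Of the 617 genes of chromosome 15, 99 (16%) likewise had no peak of either list in their windows.

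**Figure D4:**
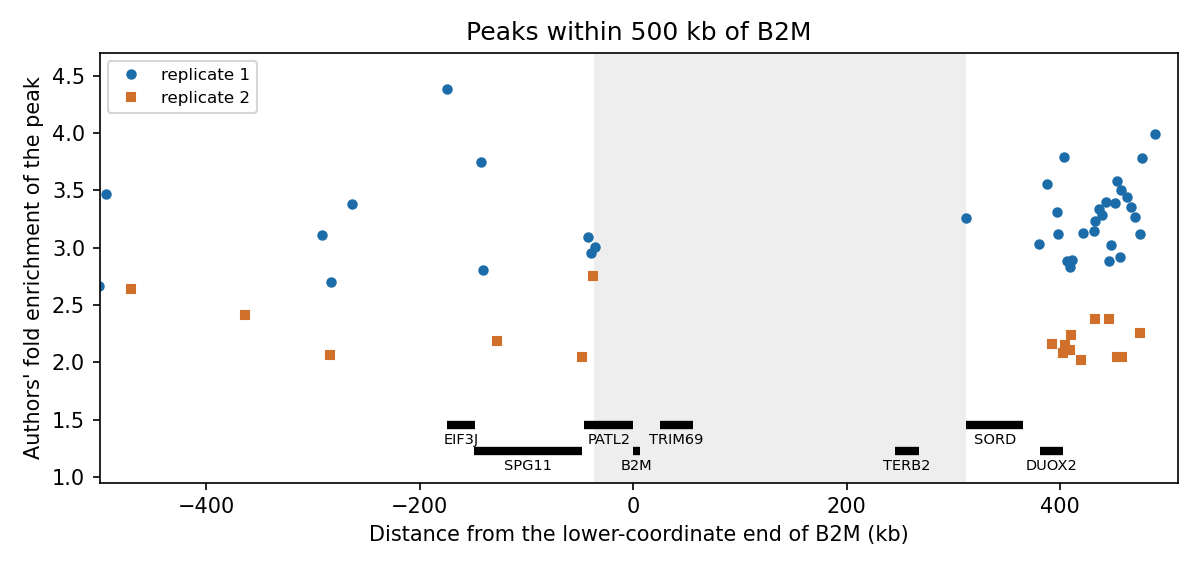
Authors' fold enrichment of each peak (vertical axis) against its distance from the lower-coordinate end of B2M in kb, with circles for replicate 1, squares for replicate 2 and black bars for neighbouring genes. The shaded 347 kb around B2M, TRIM69 and TERB2 hold no peak, and the nearest peaks lie over PATL2.

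NLRC5 (16:56989557-57083520) differed from the other members. Its window of 114 kb held 33 peaks of replicate 1, 18 of replicate 2 and 15 shared regions. This corresponds to 29 and 15.8 peaks and 13.2 shared regions per 100 kb. Densities were lower in 92.7% of all protein-coding genes in replicate 1 and in 90.5% in replicate 2. Among the 854 genes of chromosome 16, with medians of 17.6 and 8.77 peaks per 100 kb, the corresponding shares were 87.0% and 79.3%. The adjoining genes had densities close to that of NLRC5. CETP, the cholesteryl ester transfer protein gene next to its lower end, had 31.0 and 16.7 peaks per 100 kb, and CPNE2, a copine gene next to its upper end, had 33 and 14.5. Their windows overlap that of NLRC5. In replicate 1, 2 of its 33 peaks lay over CETP and 1 over CPNE2.

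Both ends of NLRC5 were near a shared region. At the lower-coordinate end, the region 16:56987574-56989905 spanned the end, with a fold of 3.23 in replicate 1 and 2.1 in replicate 2. The peak of replicate 2 in it, 16:56988399-56989240, stopped short of the gene. At the upper-coordinate end, the region 16:57083938-57085185 began 0.418 kb beyond the gene, with folds of 2.98 and 2.31. The gene body held 15 peaks of replicate 2 and 24 of replicate 1, besides the peak of replicate 1 over the lower end. Of the 12 shared regions that touched the gene span, 3 were centred below the middle of the gene and 9 above it. The longest run of the gene without a peak in either list was 11.5 kb, from 15.4 to 26.9 kb above the lower end. The widest shared region, 16:57057634-57062678, was 5045 bp wide (3.32 and 2.24). The next were 16:57025365-57030126 (4762 bp, 3.01 and 2.24) and 16:57039295-57043736 (4442 bp, 2.92 and 1.96). Shared regions at NLRC5 had a median width of 2332 bp, against 1337 bp over all shared regions.

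**Figure D5:**
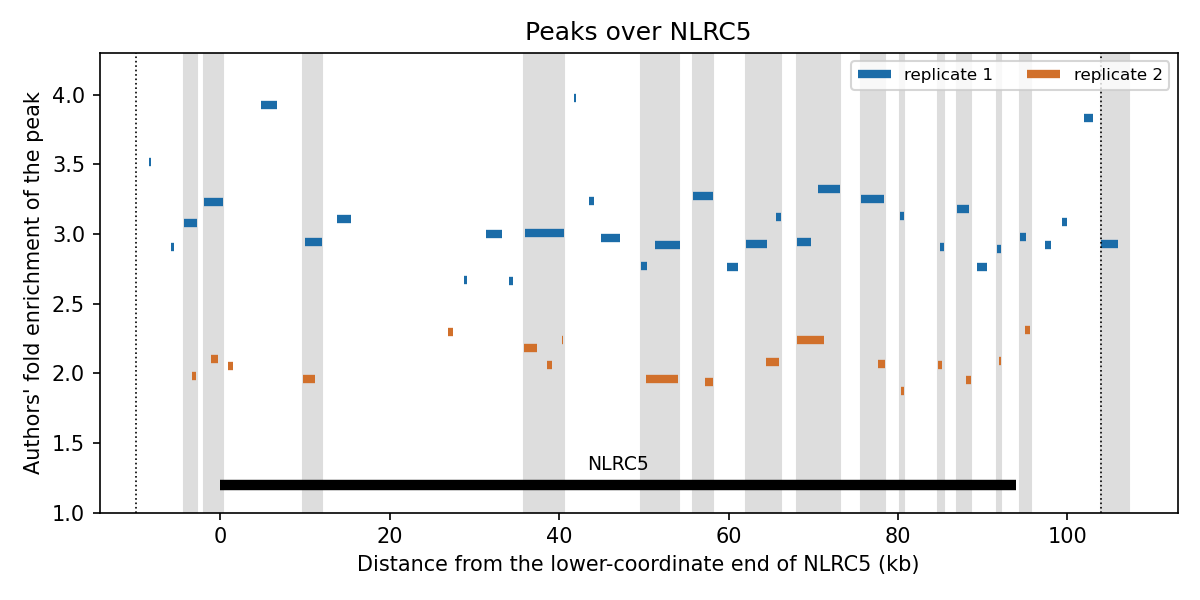
Peaks of replicate 1 (blue) and replicate 2 (orange) as bars at the authors' fold enrichment (vertical axis) against the distance from the lower-coordinate end of NLRC5 in kb, with the gene as a black bar, shared regions shaded and dotted lines at the limits of the window. Peaks cover the gene on both sides of an empty run from 15.4 to 26.9 kb, and those of replicate 1 lie above those of replicate 2.

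The peaks at NLRC5 were numerous, but their median fold was below that of the whole list in each replicate. In replicate 1 their fold ran from 2.66 to 3.98 with a median of 3.0, below the 3.14 of the whole list, and 10 of 33 exceeded that value. In replicate 2 it ran from 1.87 to 2.31 with a median of 2.07, below 2.27, and 2 of 18 exceeded it. Their median −log10 q was 1.97 in replicate 1 and 1.96 in replicate 2, slightly above the 1.91 and 1.80 of the whole lists. The peaks with the highest fold in replicate 1, 16:57031313-57031537 (3.98), 16:56994305-56996200 (3.93) and 16:57091216-57092289 (3.83), had no overlapping peak in replicate 2. In the shared regions the fold was between 2.89 and 3.32 in replicate 1 and between 1.87 and 2.31 in replicate 2. With the 50% of peaks of higher fold in each list, NLRC5 had no shared region. Of its peaks, 54.5% in replicate 1 and 88.9% in replicate 2 were part of a shared region, against 28.7% and 52.0% of the whole lists. Peaks covered 39.8% of the window in replicate 1 and 16.8% in replicate 2, and the part of this dense coverage in the overlap was not tested.

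The members in the MHC and those elsewhere were compared by their windows. In the MHC, 0 of 7 had a peak of either replicate. Elsewhere, 1 of 2 did, and B2M and NLRC5 differed as much from each other as NLRC5 did from the MHC genes, from 0 to 29 peaks per 100 kb in replicate 1. With 2 genes outside, the comparison does not show that the place in the MHC separates the members.

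The other genes of the pathway were counted against the shares of all genes. A list of 23 genes covered peptide supply by the immunoproteasome and its activator, loading and trimming in the endoplasmic reticulum, and transcription factors of class I genes. Peaks were in the window of 20 genes (87%) in replicate 1, against 83.2% of all genes, and of 20 in replicate 2, against 74.5%. A shared region was in the window of 17 of 23 (73.9%), against 59.5% of all genes. This count fell to 8 (34.8%, against 21.8% of all genes) at a −log10 q of at least 2, and to 6 (26.1%, against 27%) with the 50% of peaks of higher fold. The median density was 9.59 and 4.1 peaks per 100 kb, against 8.10 and 4.0 over all genes. In peptide supply, 3 of 5 genes had a shared region, and the other two, the immunoproteasome genes PSMB8 and PSMB9, lie next to TAP1 and TAP2 in the empty stretch. In loading and trimming, 5 of 6 had one, and in transcription 9 of 12. The windows of PSME1 and PSME2, both among the 3 of peptide supply, overlap and hold the same region, 14:24135514-24139783. ERAP2 lies within the span of ERAP1. Genes of these pairs are not independent observations in the 17 of 23 or in the counts by step. Outside the MHC, RFXAP, a subunit of the RFX factor of the X box, was the single gene of the list without a peak of either replicate, 21.8 and 22.1 kb away. ERAP2, NFYA and CREB1 had peaks of both replicates that did not overlap. PSMB8, PSMB9, PSME1, PSME2, RFXAP and these 3 genes are named after their values were seen.

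The 6 genes of this list with the shared regions of highest rank by fold are described next; since fold chose them, their folds are given with no comparison. ERAP1, an aminopeptidase that trims peptides, had 5:96753468-96754525 in its window (3.91 in replicate 1 and 2.46 in replicate 2). NFKB1, the p105/p50 subunit of NF-kB, had 4:102614211-102615429 (3.46 and 2.59). CALR, the gene of the chaperone calreticulin, had 19:12927026-12928768 at the edge of its window (3.62 and 2.41). RFXANK, another RFX subunit, had 19:19185065-19187083 (3.49 and 2.40). CIITA, the class II relative of NLRC5 and likewise on chromosome 16, had 16:10898001-10898916 (3.44 and 2.44). IRF1, an interferon-induced factor, had 5:132480279-132481423 (3.65 and 2.22). CIITA had 25.8 and 9.30 peaks and 5.16 shared regions per 100 kb, below the 29, 15.8 and 13.2 of NLRC5. This difference has no replicate error beyond the 2 lists.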

How the data were processed

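ChIP-seq peaks were analysed from 1 list per replicate; the design text says that the replicates were biological and that peaks were called for each. The submitters' processing notes name the aligner Bowtie2 (2.2.9), the peak caller MACS2 (2.1.1) and hg38 without saying how each was used, and no source used here gives thresholds. The deposited fold enrichment (a ratio) and −log10 q of each peak are the authors' values and were used only to rank, filter and describe the peaks of each list. Peaks of replicate 2 have "Merge" in their names, without explanation; if samples were pooled, the lists would not be independent. Inputs could enter only through the caller, and the processing notes do not say whether they did.

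Gene spans were read from RefSeq's gene table (GRCh38.p14, the build of hg38), with no strand or exons, so places are given by gene ends, and promoter letters from a RefSeq table of the same build. Peaks were counted where they overlapped a window; for densities per Mb they were placed by their centre. Members and lists were chosen with earlier results of these data known. The rule for named genes took all members, the 6 best pathway genes by mean rank of fold, the 5 genes of the MHC region with most shared regions and genes holding a member's peak; 1 gene of the pathway list is not reported here and is left out of its counts; genes at the borders of empty stretches were named after their values were seen. Python 3.11.15 with pandas 2.3.3 and Biopython 1.88 (global alignment of promoters) was used, and the counting was tested on simulated data. Alternatives covered the peak threshold, list length, window, limits of the MHC region, overlap and each replicate alone.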

Additional observations from a re-analysis of the deposited data

How the results depend on the processing

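In all settings tried, the 7 members on chromosome 6 had no peak. This could not come out otherwise, since no setting adds peaks. The peak nearest to any of them, 174 kb from TAPBP, also lies beyond the widest window of 50 kb. B2M had none within 5 or 10 kb; with windows of 50 kb, 2 members had a peak of replicate 1 and 2 a peak of replicate 2, B2M being added, while 1 had a shared region. With the 50% of peaks of higher fold, 0 members had a shared region in the window and 0 within 1 kb of an end; with a reciprocal overlap of 50%, 0 had one at an end. Pathway genes with a shared region numbered 17 (73.9%, against 59.5% of all genes), but 8 (34.8%, against 21.8%) at a −log10 q of at least 2 and 6 (26.1%, against 27%) with the peaks of higher fold. Replicate 1 peaks per Mb in the MHC region, 26.3 in the full list, were 12.5 (−log10 q of at least 2), 13.2 (higher fold) and 16.2 (equal numbers of peaks), and replicate 2 peaks, 16.7 in full, were 4.33 and 3.33 under the first and second of these settings. Shared regions per Mb, 10.3 in full, were 1.5 (−log10 q), 0.667 (higher fold), 7.33 (equal numbers) and 3.17 (reciprocal overlap). With either replicate alone, all peaks of that list stood in for shared regions. This gave its own peak density, 26.3 for replicate 1 and 16.7 for replicate 2. Between 29 and 33 Mb all 3 densities were 0. Stricter settings hold fewer peaks by construction. The other 28 values stayed within 1.5 times the count. No paired analysis was possible because each replicate number joins 1 ChIP list with an input that has no list, and no result comes from a test. Depth is unknown, so an absent peak sets no upper limit on enrichment.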

Other observations

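Another gene-dense stretch without a peak in either list held receptors of class I molecules. The stretch 19:54024772-55084532 (1.06 Mb, 42 protein-coding genes, rank 4 by genes) contained 10 of 11 genes with symbols that start with LILR, leukocyte immunoglobulin-like receptors. It also contained 7 of 15 killer immunoglobulin-like receptor genes. Both families have members that bind class I chains. Whether the remaining genes of these families are placed on the main chromosome sequences was not examined here. The second stretch by genes, 17:35765323-38853018 (3.09 Mb, 55 genes), contained 10 of 28 chemokine genes with symbols that start with CCL. The third, 8:7062456-8260067 (1.2 Mb, 43 genes), contained 13 of 45 defensin genes with symbols that start with DEFA or DEFB. These families were picked after the stretches were seen, and no test was made. Over all protein-coding genes, 14.1% had no peak of either replicate in their window. Family genes inside 1 stretch lie close together and are not independent observations. How reads that match more than 1 sequence were treated is unknown for these stretches too, and its part in them was not tested.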
